A study of Mus musculus with 12 samples.

Results

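Intermediate filaments are the rope-like polymers of the cytoskeleton, and which of their subunits a cell makes depends on its type and stage. The 8 genes described here encode the subunits of neurons and of precursor and mesenchymal cells: the neurofilament light, medium and heavy chains (Nefl, Nefm and Nefh), alpha-internexin (Ina), peripherin (Prph), nestin (Nes), vimentin (Vim) and synemin (Synm). They were followed by name among the 24060 genes listed for 12 mouse rhabdoid tumors, and were selected on values of these data: they were chosen in part because of the high Nefl level in 2 cheek tumors. RPKM scales the reads of a gene to its transcript length and to the mapped reads of the tumor, so levels of different genes can be set side by side.

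The tumors arose in P0-CreC;Smarcb1 flox/flox mice on an FVB/N background, in which the promoter of the myelin gene P0 drives Cre recombinase in neural crest cells and the Schwann cell lineage and both floxed copies of Smarcb1, a subunit of the SWI/SNF chromatin remodelling complex, are deleted there. By the location given for each, 4 tumors were retro-orbital, 3 came from the cheek, 3 from the meninges, 1 from the vestibular nerve (vestibular N) and 1 from the trigeminal nerve (trigeminal N). Every tumor carried the same genotype, no treatment was given, and neither normal nerve nor tumors of another genotype were among the samples analysed here. The age of the animals was not given per tumor, and the tissue was a whole tumor, which also holds vessels and inflammatory cells that keep Smarcb1.

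In developing neurons and glia the filament network changes in a known order. Precursor cells build it from vimentin and nestin, young neurons add alpha-internexin and peripherin, and mature axons are filled with the neurofilament triplet, in which the light chain forms the core and the medium and heavy chains carry long side arms. Vimentin stays the main filament protein of mesenchymal cells, while synemin and nestin cannot form filaments alone and join vimentin, desmin or the neuronal subunits.

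The totals to which the RPKM values had been scaled ranged from 13206168 fragments in cheek 3 to 57128422 in retro-orbital 3. They were recovered from GENCODE transcript lengths and small whole numbers of fragments. These totals are estimates, supported by 71 genes in retro-orbital 3 and by 237 to 1304 genes in the other tumors, and the fragment numbers given below rest on them. How they relate to the number of reads sequenced was not tested. Smarcb1 itself lay between 1.70 and 6.31 RPKM in the 12 tumors, and with no undeleted tissue beside them this level did not test the deletion. The first part of the tumor name was shared by cheek 2 and cheek 3, by cheek 1 and meninges 1, and by retro-orbital 3 and trigeminal N 1. Whether such a pair came from 1 animal was not stated. Over all genes, cheek 2 and cheek 3 had the highest Pearson correlation (0.989) of the 66 pairs of tumors, against a median of 0.920. It was 0.947 for cheek 1 and meninges 1, and 0.927 for retro-orbital 3 and trigeminal N 1. Test results below treat the tumors as independent, and p-values measure only the spread between these samples.

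The 8 genes lie on 7 chromosomes (RefSeq, GRCm38.p6). Nefl is on chromosome 14 from 68083863 to 68089095 on the plus strand, and Nefm is beside it from 68119545 to 68125004 on the minus strand, with 30449 bases between them. Nefh lies on chromosome 11 (4938754 to 4948064), Ina on chromosome 19 (47014681 to 47025327), Prph on chromosome 15 (99053579 to 99058978), Nes on chromosome 3 (87971093 to 87980451), Vim on chromosome 2 (13574311 to 13582826) and Synm on chromosome 7 (67730161 to 67759742). RefSeq promoter windows, from 250 bases before to 50 bases after the start, were matched for 5 of the 8 genes. The windows of Nefl, Nefm and Nefh were not used here.

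The stretch from 43 to 14 bases before the start is printed for those 5 genes, 5′ to 3′ on the strand of the gene, because it shows whether the TATA box that the most abundant member carries is also found in its low relatives. Capitals mark the letters TATAAA.

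Vim, chr2:13574268-13574297, plus strand: cctaacagtgtTATAAAagcagcgcccttg
Prph, chr15:99055131-99055160, plus strand: agaccgcagggcTATAAAgccgccccgcat
Ina, chr19:47014638-47014667, plus strand: ccccaaccccgcgccttaaaagccccgcac
Nes, chr3:87971050-87971079, plus strand: atgaataccctcgcttcagctcgctgctgg
Synm, chr7:67759756-67759785, minus strand: gcgaccgggccactaagtggggaagctcgc

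TATAAA, searched on both strands of the whole window, was present in Vim and Prph and was not found in Ina, Nes or Synm. Its first base stood 32 bases before the start in Vim. In Prph it stood 31 bases before 99055174, the start to which the window belongs, which lies inside the RefSeq span given above. Of all 32851 promoter windows, 13.6% hold it. CCAAT was found in Vim and Synm (37.4% of all windows) and GGGCGG in Ina, Prph and Nes (35.7% of all windows). Thus a TATA box was shared by a gene that reached 3001 RPKM and by one that stayed under 20 RPKM in each tumor, and these matches are letters in a window, not measured binding.

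Nefl, the core subunit of the neurofilament, gave the values by which the genes were chosen, and they are a description with no test. It measured 412 RPKM in cheek 2 and 335 RPKM in cheek 3, but 4.35 RPKM in cheek 1. The retro-orbital tumors had 12.5, 5.35, 1.49 and 5.21 RPKM, the meninges tumors 2.997, 3.02 and 7.19 RPKM, vestibular N 1 had 10.1 RPKM and trigeminal N 1 7.91 RPKM. The third cheek tumor thus lay among the other locations, and the location mean of 250 ± 216 RPKM (SD, n = 3) describes none of its tumors. In whole tumors, fewer cells of a type and less RNA per cell cannot be told apart. The lower of the 2 high tumors was 26.9 times the next, retro-orbital 1, and the mean of the 2 was 70.6 times the median of the other 10. Nefl was detected in every tumor, from 159 to 26877 fragments, and in cheek 2 it ranked 104 among all genes.

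Nefm, whose protein carries a side arm of the same filament and whose gene is the neighbour of Nefl, showed the same split. It stood at 91.7 RPKM in cheek 2 and 67.6 RPKM in cheek 3, and at 1.64 RPKM in cheek 1. Values were 0.503, 1.12, 0.314 and 0.984 RPKM in the retro-orbital tumors, 1.71, 0.824 and 3.51 RPKM in the meninges, 4.30 RPKM in vestibular N 1 and 1.87 RPKM in trigeminal N 1. The gap from cheek 3 down to the next tumor, vestibular N 1, was 15.7-fold. Nefl exceeded Nefm in every tumor, by 4.49 times in cheek 2 and 4.95 times in cheek 3, which is inside the range of 1.75 times in meninges 1 to 24.8 times in retro-orbital 1. Such a pattern was not particular to these genes: 868 of the 14745 genes in the comparison of locations (5.89%) were higher in both cheek 2 and cheek 3 than in each of the other 10 tumors, and Nefl, which chose the members, and Nefm were 2 of the 6 members that could be counted. The 2 genes lie on opposite strands without overlap in RefSeq, the annotation used for counting, but the longer Nefm model of GENCODE M21 (68082590 to 68124846) runs across Nefl, and whether fragments were counted by strand was not stated.

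Nefh, the heavy chain that is added to axons as they mature, was not high in the tumors where its partners were. Cheek 2 and cheek 3 had 0.0768 and 0.114 RPKM, which rest on 10 and 6 fragments, and cheek 1 had 0.380 RPKM. Retro-orbital 1, 2 and 4 had 0.342, 0.145 and 0.152 RPKM, and none of its fragments was counted in retro-orbital 3, where 3 fragments would have been worth 0.0132 RPKM. The meninges tumors had 0.783, 0.314 and 1.72 RPKM, trigeminal N 1 0.627 RPKM and vestibular N 1 4.86 RPKM. The highest level of Nefh RNA was therefore in the vestibular tumor, and both tumors with abundant Nefl and Nefm RNA were among the lowest. These are RNA levels, and the paper found no staining of neurofilament triplet proteins in the tumors of this genotype that it stained. Whether cheek 2 or cheek 3 was among the stained tumors was not stated. Over all 12 tumors the correlation of Nefh and Nefm did not pass (r = -0.06, adjusted permutation p = 0.94). It was 0.89 in the 10 tumors left without cheek 2 and cheek 3, where vestibular N 1 was the highest for both. That subset depends on the tumors that chose the members, so its value is a description.

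Ina, the subunit that accompanies the triplet in central axons, was the lowest member and reached 1 RPKM in none of the 12 tumors. It measured 0.611, 0.522 and 0.771 RPKM in the meninges, 0.467 RPKM in vestibular N 1 and 0.565 RPKM in trigeminal N 1. The other tumors lay below these, at 0.163 and 0.1503 RPKM in retro-orbital 3 and 4, 0.203 RPKM in cheek 1 and 0.0407 RPKM in cheek 2. No fragment was counted in retro-orbital 1, retro-orbital 2 or cheek 3, where 3 fragments correspond to 0.0491, 0.0452 and 0.101 RPKM. At most 38 fragments stood behind any of its values, and these limits cover counting error alone.

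Prph, the filament protein of peripheral sensory and autonomic neurons, was high in another pair of tumors. It stood at 19.8 RPKM in retro-orbital 2 and 12.6 RPKM in vestibular N 1. The other retro-orbital tumors had 0.0792, 1.43 and 0.494 RPKM, so that its 4 values at this location spanned a 251-fold range. Cheek 2 and cheek 3, the tumors with abundant Nefl, had 0.131 and 0.122 RPKM from 8 and 3 fragments, against 2.38 RPKM in cheek 1. Meninges tumors measured 3.35, 0.958 and 1.42 RPKM and trigeminal N 1 3.37 RPKM. In vestibular N 1 Prph was the highest member after Vim.

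**Figure D1:**
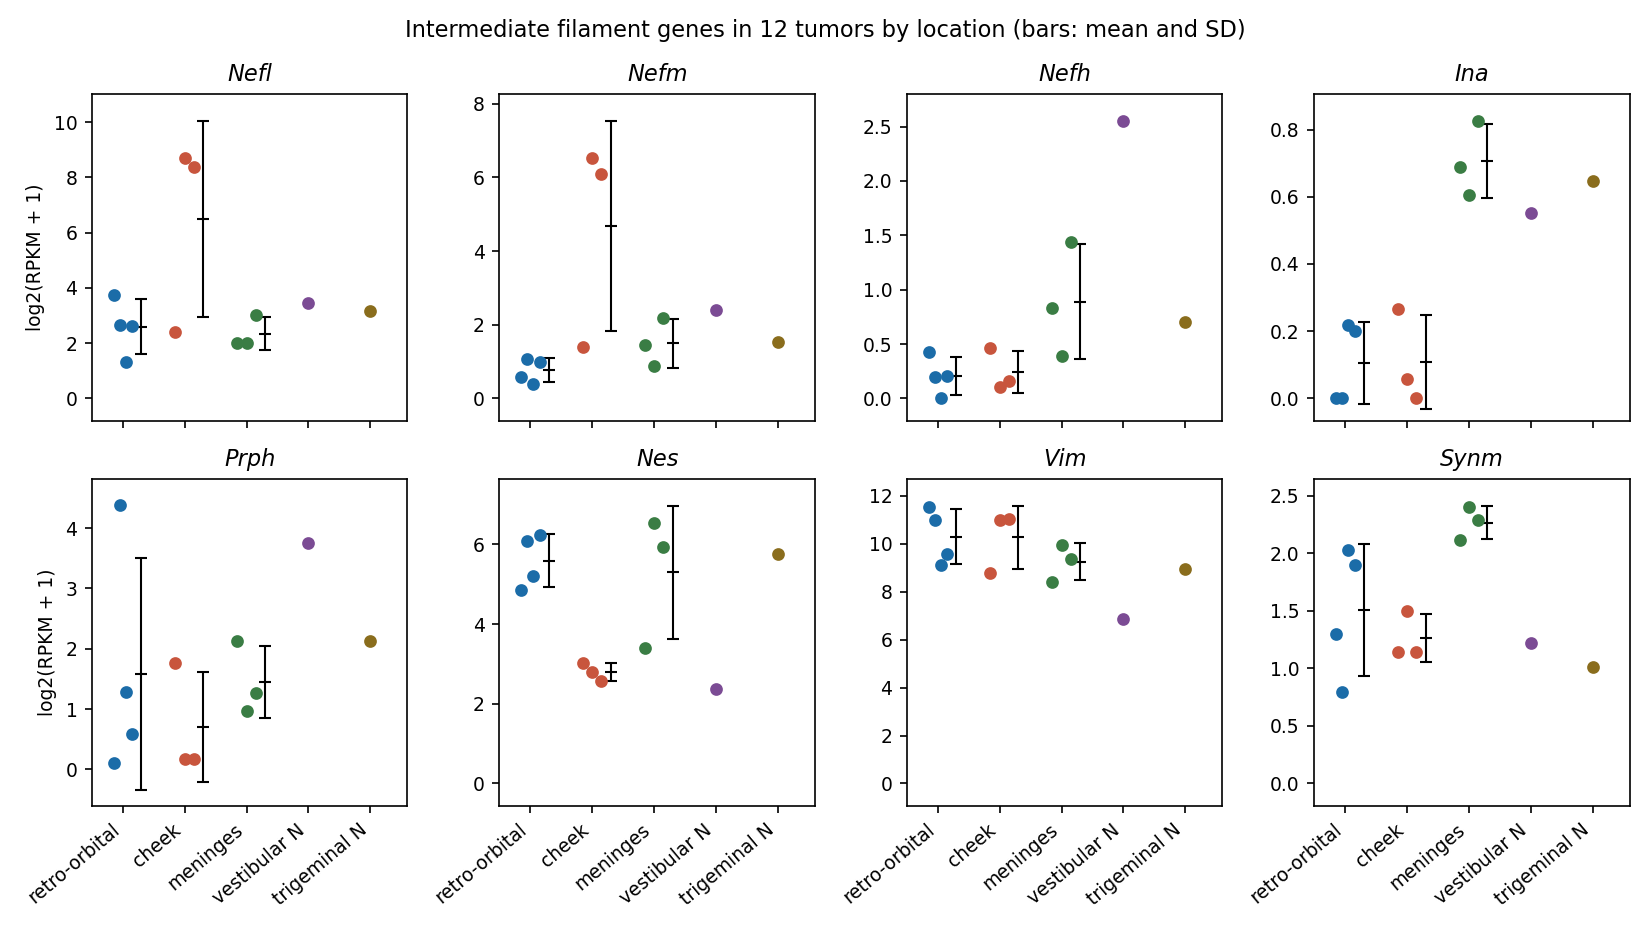
Level of each of the 8 genes, as log2(RPKM + 1) on the vertical axis with a separate scale per panel, in the retro-orbital (4), cheek (3), meninges (3), vestibular N (1) and trigeminal N (1) tumors on the horizontal axis. Each point is 1 tumor, in replicate order from left to right, and the black marks give the mean and SD of a location. Nefl and Nefm are high in 2 of 3 cheek tumors, Ina is above 0.5 on this scale in the meninges and nerve tumors and below 0.3 elsewhere, and the 3 cheek tumors are low for Nes.

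Nes, the filament protein of neural and muscle precursors and of sprouting vessels, was the highest member after Vim in 9 of the 12 tumors. It measured 27.8, 66.5, 36.0 and 74.0 RPKM in the retro-orbital tumors and 9.62, 91.8 and 60.7 RPKM in the meninges. Trigeminal N 1 had 52.8 RPKM. The low values were those of the cheek tumors, 7.17, 5.99 and 4.99 RPKM, and of vestibular N 1 at 4.17 RPKM. Cheek and retro-orbital values did not overlap for Nes, nor for Nefm in the opposite direction. These were 2 of the 6 members counted, at a background of 11.1% of all genes without overlap between these locations, and no test was made because the cheek tumors were used to choose the members.

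Vim, the filament of mesenchymal cells, was by far the most abundant. The retro-orbital tumors had 3001, 2022, 547 and 754 RPKM, the cheek tumors 432, 2065 and 2067 RPKM and the meninges tumors 341, 991 and 658 RPKM. Trigeminal N 1 measured 490 RPKM and vestibular N 1 114 RPKM. Vim ranked 7 among all genes in retro-orbital 1 and 489 in vestibular N 1, where its level was 26.3 times lower than in the highest tumor. It made up from 75.1% to 98.6% of the summed RPKM of the 8 genes. Both tumors with abundant Nefl were also among the 4 tumors with the highest Vim.

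Synm, the large subunit found with desmin and vimentin, had a narrow range. It was 1.46, 0.731, 3.09 and 2.73 RPKM in the retro-orbital tumors, 1.20, 1.83 and 1.21 RPKM in the cheek and 3.33, 4.27 and 3.87 RPKM in the meninges. Vestibular N 1 had 1.33 RPKM and trigeminal N 1 1.015 RPKM. The highest tumor was 5.84 times the lowest, and the 3 meninges values stood above all others.

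**Figure D2:**
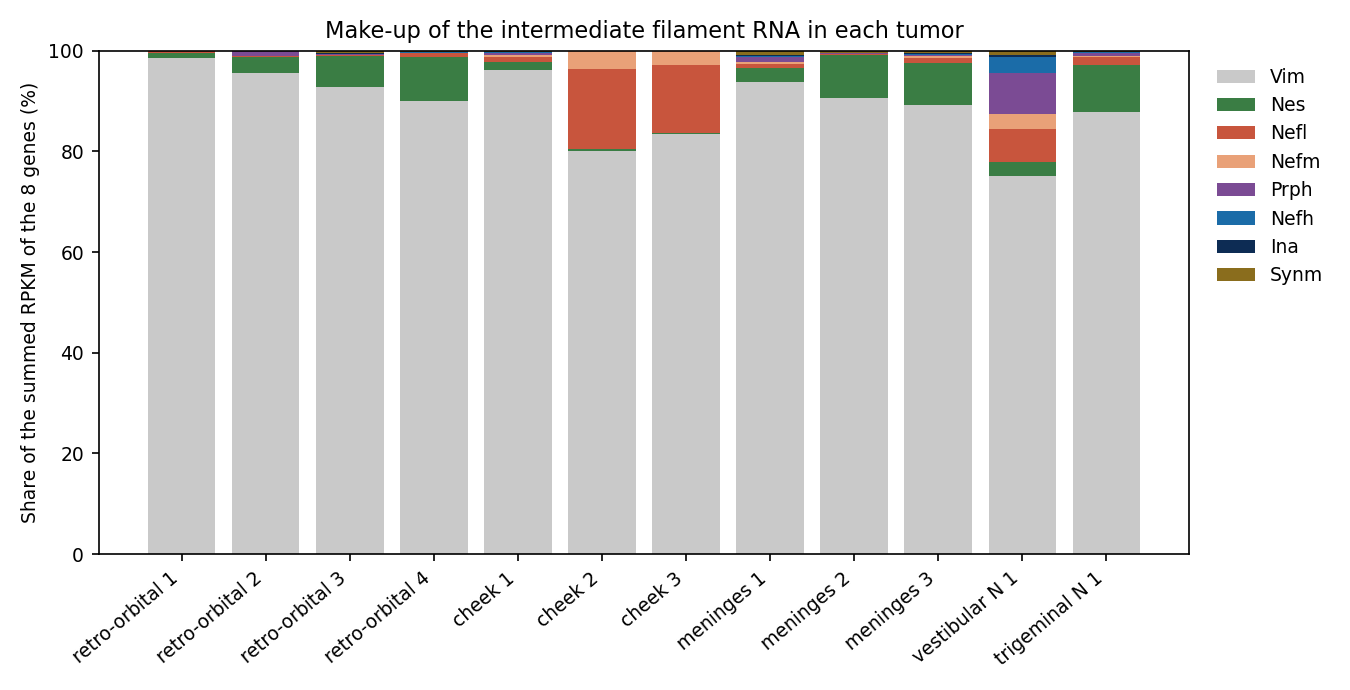
Share of each of the 8 genes in their summed RPKM (vertical axis, in %) in each of the 12 tumors (horizontal axis), stacked to 100%. Vim fills most of each bar, Nefl and Nefm together take 19.5% in cheek 2 and 16.2% in cheek 3, and vestibular N 1 has the smallest share of Vim (75.1%) and visible shares of Prph, Nefl and Nefh.

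Summed over the 8 genes, filament RNA ranged from 152 RPKM in vestibular N 1 to 3043 RPKM in retro-orbital 1. Nefl and Nefm together made up 19.5% of that sum in cheek 2, 16.2% in cheek 3 and 9.47% in vestibular N 1. In the remaining 9 tumors their share lay between 0.306% and 1.75%. The shares drawn for each tumor show that the sum itself did not set them apart, since retro-orbital 1 and 2 had sums of 3043 and 2116 RPKM and Nefl and Nefm shares of 0.426% and 0.306%.

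By the median over the 12 tumors the levels per length ran Vim (706 RPKM), Nes (31.9), Nefl (6.27), Nefm (1.67), Synm (1.64), Prph (1.42), Nefh (0.328) and Ina (0.183). Neighbours in this order were compared within tumors on log2(RPKM + 1), with Nefl left out, by a two-sided exact sign-flip permutation test adjusted over the 6 pairs. The order came from the same 12 tumors, so the p-values are no independent test of it. Vim exceeded Nes by 5.06 ± 1.86 on the log2 scale (SD, n = 12) in 12 of 12 tumors (exact p = 0.00049, adjusted p = 0.0029). Prph exceeded Nefh by 0.94 ± 1.21 in 10 of 12 tumors (exact p = 0.0083, adjusted p = 0.025), but with 1 tumor kept for each shared name (9 tumors) the adjusted p was 0.07. The other 4 pairs did not differ beyond their spread. Nes lay 2.44 ± 3.29 above Nefm (exact permutation, adjusted p = 0.061), Nefm 0.56 ± 2.23 above Synm (exact permutation, adjusted p = 0.53), Synm 0.01 ± 1.66 above Prph (exact permutation, adjusted p = 0.98) and Nefh 0.28 ± 0.59 above Ina (exact permutation, adjusted p = 0.09). Nefm therefore ranked beside Synm by its median while exceeding it in 6 of 12 tumors. The comparisons with Nefm hold its high values in cheek 2 and cheek 3, the tumors that chose the members, so they are descriptions.

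Over the 12 tumors, correlations between the 7 members other than Nefl were computed for 21 pairs on log2(RPKM + 1), and none passed the adjusted threshold of 0.05 by Pearson's r or Spearman's rho (100000 permutations, two-sided). Before adjustment 4 pairs passed by r and 5 by rho. The lowest adjusted permutation p by r, 0.084, was shared by Nefh and Vim, Ina and Vim, Nefh and Ina, and Nefm and Nes. Nefh and Vim had r = -0.72 and rho = -0.62, Ina and Vim had r = -0.68 and rho = -0.72, and Nefh and Ina had r = 0.62 and rho = 0.69. For Prph and Vim r was -0.49 (adjusted permutation p = 0.33) and rho -0.72 (adjusted permutation p = 0.12), and r became -0.93 when the 2 tumors farthest from the median of Prph were left out. Nes and Vim, both filaments of precursor cells, had r = 0.22 and rho = 0.17. The 12 Nefm values fall into separate clusters. The 6 pairs with Nefm are in the counts above, and the pooled r with Nefh is printed with Nefh, but nothing is concluded from their pooled coefficients.

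The 3 genes most like each member were sought among the 12914 genes that reached 5 RPKM in some tumor, by Pearson's r over the 12 tumors, which is a description. For Nefl they were Atxn10 (r = 0.976), Osbp2 (0.972) and Bag2 (0.964), each highest in cheek 2 or cheek 3, and Nefm came sixth in that order (rank 6, r = 0.956). For Nefm they were Fam122b (0.980), Pgbd5 (0.973) and Vmn1r43 (0.963). Since 2 tumors carry these coefficients, they say which genes share the high pair and little more. Nefh was tracked by Ntn5 (0.981), the glutamate receptor gene Grik2 (0.971) and the synaptic vesicle gene Snap91 (0.959), each highest in vestibular N 1, and Ina by the neuronal stathmin Stmn3 (0.964), Plscr5 (0.962) and Maneal (0.958), each highest in meninges 3. Prph went with Myzap (0.956), Nqo2 (0.902) and Pdgfa (0.878). Nes went with Pld4 (0.936), Rac2 (0.930) and Slc15a3 (0.924), genes best known from leukocytes. Vim was tracked by the calpain gene Capn2 (0.965), Ptpre (0.962) and Flna (0.956), the actin-binding filamin A, and Synm by Rasip1 (0.909), Fbln1 (0.902) and Ccdc158 (0.901).

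To compare locations other than the cheek, the meninges tumors (3) were compared with the retro-orbital tumors (4) in a limma fit of log2(RPKM + 1) over 14745 genes. The cheek tumors entered this fit through the shared error, so the values that chose the members bear on it, and a fit of the 7 tumors alone is given beside it for Nefl and Nefm. None of the 6 members tested passed an adjusted p of 0.05 by limma. Of all genes 3 were called (0.0203%), 2 of them higher and 1 lower in the meninges, and this count was 0 in the fit of 7 tumors and ran from 0 to 41 when 1 tumor was left out, with 41 without retro-orbital 3. At an unadjusted p under 0.05 there were 1348 genes (9.14%) and 1 of the 6 members, Synm, whose interval in the fit of 7 tumors was -0.09 to 1.61 (limma adjusted p = 0.634). Nefh and Ina did not reach 1 RPKM in 3 of the 10 fitted tumors and were not among the genes tested.

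Synm had the difference of smallest error, 0.76 higher in the meninges on the log2 scale (SE 0.33, 95% interval 0.016 to 1.505, limma adjusted p = 0.544), and was the 1 member of 6 without overlap between the locations, where 9.23% of all genes had none. Vim differed by -1.05, with the lower mean in the meninges (SE 0.74, 95% interval -2.72 to 0.61, limma adjusted p = 0.658). Nefm was 0.73 higher (SE 1.05, interval -1.63 to 3.09, adjusted p = 0.826), and without the cheek tumors in the fit the SE was 0.38 and the interval -0.16 to 1.62 (limma adjusted p = 0.635). For Nefl the fit without the cheek tumors gave a difference of -0.25 (SE 0.57, interval -1.58 to 1.09, limma adjusted p = 0.916), and with them the SE was 1.33. Prph differed by -0.13 (SE 0.93, interval -2.23 to 1.96, adjusted p = 0.972) and Nes by -0.29 (SE 0.66, interval -1.78 to 1.20, adjusted p = 0.9). The median difference of the 6 members was -0.19, against 0.13 for all genes tested.

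In a fit without the filter, over 22520 genes of which 7 (0.0311%) were called, Ina was 0.60 higher in the meninges (95% interval 0.37 to 0.83, limma unadjusted p = 0.00022, adjusted p = 0.105) with no overlap between the locations, as in 8.78% of these genes. Nefh was 0.68 higher (0.16 to 1.21, limma adjusted p = 0.433), and its values overlapped. Neither difference passed the adjusted threshold. The meninges values of Ina rest on 31 to 38 fragments and the retro-orbital values on 0 to 21.

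**Figure D3:**
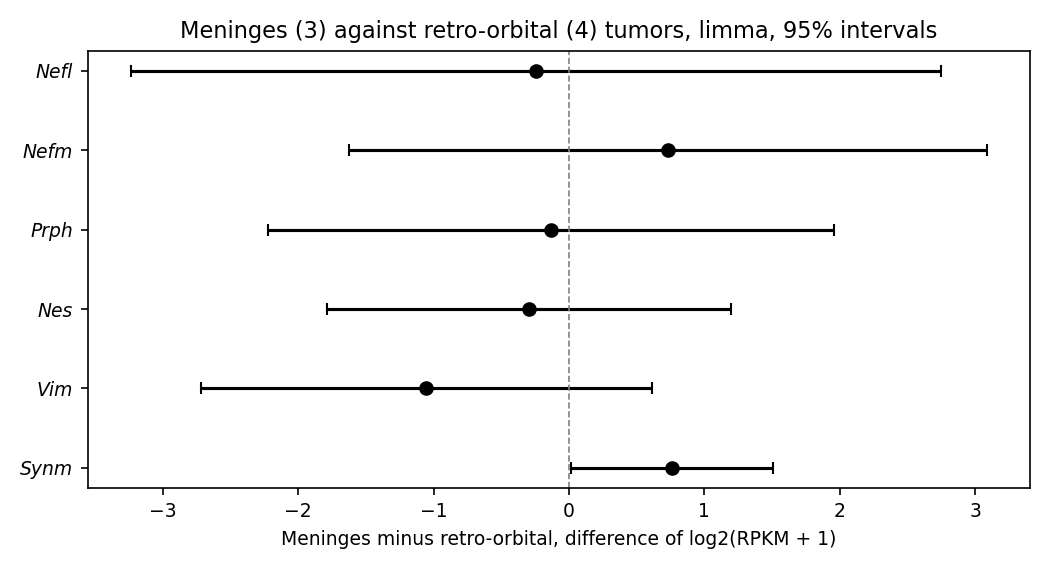
Difference between the meninges (3) and retro-orbital (4) tumors for the 6 members tested, as meninges minus retro-orbital on the log2(RPKM + 1) scale (horizontal axis), with 95% intervals from limma as bars. The intervals of 5 genes cross 0, that of Synm starts at 0.02, and no member passed the adjusted threshold. The bars of Nefl and Nefm are wide with the cheek tumors in the shared error (SE 1.33 and 1.05, against 0.57 and 0.38 without them).

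Neuronal marker genes were scarce in the 2 tumors with abundant Nefl and Nefm. Of 20 neuronal markers, 5 reached 1 RPKM in cheek 2 and the same number in cheek 3, against 7 to 19 in the other tumors. Their summed level was 76.7 and 80.5 RPKM in these tumors, within the range of 67.9 to 347 RPKM in the other 10. Those at 1 RPKM or more were the tubulin Tubb3 (10.9 and 10.5 RPKM), the synaptic protein gene Snap25 (25.5 and 25.4), Stmn2 (16.8 and 17.1), Uchl1 (8.74 and 11.8) and Thy1 (10.6 and 11.1). Several defining markers were at or near 0, with Rbfox3 (NeuN) at 0.06 and 0.02 RPKM, Elavl3 at 0.03 and 0 RPKM and Chga at 0 in both. Such low values were not limited to these tumors, since Rbfox3 was at 0.03 and Elavl3 at 0.05 RPKM or less in retro-orbital 1 and 2, Chga was at 0.11 RPKM or less in the retro-orbital tumors and cheek 1, and Dcx reached at most 0.25 RPKM in any tumor. Tubb3 was the 1 gene of the 20 that was higher in both than in each other tumor, by a small margin over 9.87 RPKM in retro-orbital 2. Of all genes in the comparison of locations, 5.89% were higher in both. Snap25 and Thy1 had the highest medians of the list, and 4 of its genes reached 1 RPKM in all 12 tumors.

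**Figure D4:**
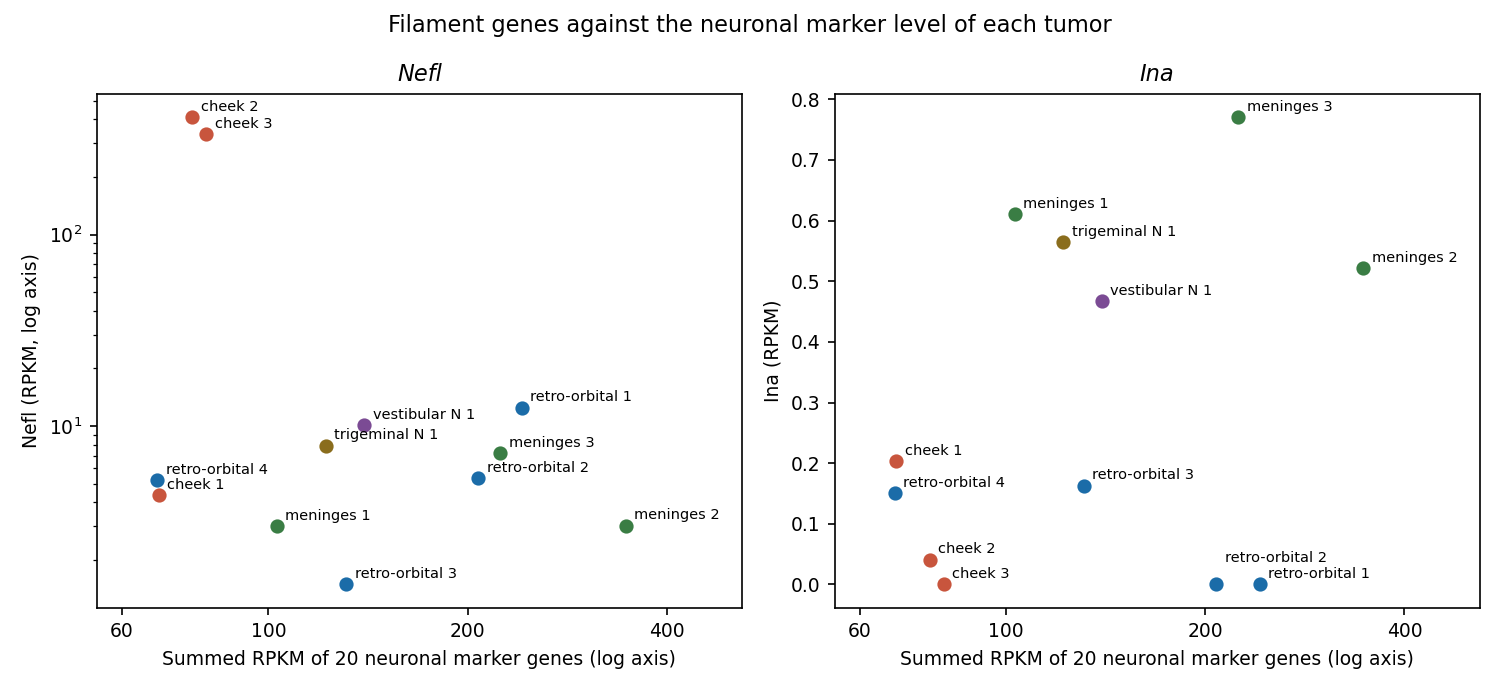
Level of Nefl (left, RPKM on a log axis) and Ina (right, RPKM) on the vertical axis against the summed RPKM of 20 neuronal marker genes (horizontal log axis), with 1 named point per tumor and color by location. Cheek 2 and cheek 3 stand far above the rest for Nefl at neuronal sums of 76.7 and 80.5 RPKM, near those of cheek 1 and retro-orbital 4, while retro-orbital 1 and 2 have no Ina at sums of 242 and 208 RPKM. Few genes carry the sums of retro-orbital 1 and 2, with Stmn2 at 150 and 74.3 RPKM. There 9 and 7 of the 20 genes reached 1 RPKM, against 16 to 19 in the meninges and nerve tumors.

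Markers of single kinds of neuron were sparse. Peripheral sensory neuron markers (15 genes, led by Runx1 and Calca) summed to between 14.8 and 87.4 RPKM, with 24.4 and 28.6 RPKM in cheek 2 and cheek 3. Motor and autonomic markers (9 genes) summed to 19.5 and 16.9 RPKM there and to between 0.6 and 5.8 RPKM elsewhere, and 17.97 and 15.22 RPKM of these were the motor neuron transcription factor gene Isl2, which with Slc5a7 had the highest median. Brain neuron markers (8 genes, led by Gad1 and Slc17a7) summed to 3.5 and 4.8 RPKM in cheek 2 and cheek 3, and to between 8.9 and 23.5 RPKM in the meninges, where Ina was also highest. Neuronal transcription factor genes (11, led by Rest and Ebf3) summed to between 26.4 and 63.5 RPKM. Rest, a repressor of neuronal genes, accounted for 23.7 to 35.3 RPKM of this, while Neurod1 was at 1.57 and 1.70 RPKM in cheek 2 and cheek 3 and at most 0.96 RPKM elsewhere.

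Markers of other tissues were also uneven across the tumors. Skeletal muscle markers (10 genes, led by Myh1 and Tnnt3) summed to 486 and 256 RPKM in cheek 2 and cheek 3, with 4 of the 10 higher in both than in each other tumor (5.89% of all genes), Acta1 among them at 196 and 106 RPKM. In these tumors 8 of the 10 reached 1 RPKM, as in retro-orbital 1 and 4. In meninges 1 the list summed to 283 RPKM, of which Tnnt3 was 165 and Myh1 112 RPKM, and 3 of the 10 reached 1 RPKM. Mesenchymal genes (10, led by Col1a2 and Col3a1) summed to 3530.5 to 5609 RPKM in the cheek and to between 1168 and 2712 RPKM elsewhere. In cheek 1, Col1a2 was 1237 and Col3a1 1648 RPKM of its sum of 3530.5 RPKM. Col1a1, Pdgfrb, Twist1 and Acta2 were each highest in a tumor outside the cheek. Leukocyte markers (7, led by Lyz2 and Cd68) summed to 4885 RPKM in retro-orbital 2, where Prph was highest, and 4444 RPKM of this was Lyz2. They summed to between 357 and 1268 RPKM elsewhere, with 421 RPKM in vestibular N 1, the next highest for Prph. The pan-leukocyte gene Ptprc lay at 9.81 to 13.7 RPKM in the cheek and 6.93 RPKM in vestibular N 1. These were the 4 tumors with the lowest Nes, and Ptprc was at 15.1 to 51.5 RPKM in the others. Csf1r split the tumors the same way, while every other gene of the list overlapped between these 4 tumors and the rest. The 4 tumors were grouped by their Nes values, and the share of all genes that split the tumors this way was not counted. Lyz2 was at 865 and 935 RPKM in cheek 2 and cheek 3, above its median of 589 RPKM. The part of these cells in the levels of the members was not tested.

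Markers of the supporting cells of the nervous system were low in cheek 2 and cheek 3, and in some retro-orbital tumors. Astrocyte and oligodendrocyte markers (7 genes, led by Gfap and Aqp4) summed to 2.1 RPKM in both cheek 2 and cheek 3, 2.4 and 2.0 RPKM in retro-orbital 1 and 2, 102 to 395.5 RPKM in the meninges and 19.9 to 279 RPKM in the remaining tumors. Schwann cell markers (10, led by Pmp22 and Erbb3) summed to 44.6 and 42.5 RPKM in cheek 2 and cheek 3 and to 40.3 to 205 RPKM elsewhere. Neural progenitor genes (7, led by Prom1 and Msi1) lay between 10.3 and 149 RPKM, and endothelial markers (6, led by Pecam1 and Cdh5) reached at most 87.1 RPKM.

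None of the genes in these lists was called between the meninges and the retro-orbital tumors by limma. At an unadjusted p under 0.05 there were 8 of the 16 neuronal markers tested, with a median difference of 1.29 over the list, 4 of 6 astrocyte and oligodendrocyte markers (median 2.46), 3 of 9 Schwann cell markers (0.82) and 2 of 4 brain neuron markers (0.89). The background at that threshold was 9.14% of the genes, and the median of all genes 0.13. The counts were 1 of 6 for the sensory list (median 0.01), 0 of 1 for the motor and autonomic list (0.66), 0 of 2 for the transcription factors (0.65), 1 of 6 for the progenitor genes (0.32), 2 of 10 for the mesenchymal genes (0.43), 2 of 8 for the muscle markers (-1.18), 2 of 6 for the endothelial markers (0.72) and 0 of 6 for the leukocyte markers (-0.17). Stmn3, the gene most like Ina, was 1.83 higher in the meninges (95% interval 1.17 to 2.50, limma adjusted p = 0.127).

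Among 15 other intermediate filament genes, 3 were higher in cheek 2 and cheek 3 than in each other tumor, as were 5.89% of all genes. Krt18, a keratin of simple epithelia, stood at 408 and 385 RPKM there while its usual partner Krt8 was at 1.78 and 1.43 RPKM, although Krt8 reached 129 RPKM in retro-orbital 3, where Krt18 was 221 RPKM. Des, the filament of muscle cells with which synemin pairs, was at 43.9 and 39.8 RPKM, and its highest value elsewhere was 24.15 RPKM in retro-orbital 1. Lmna, which encodes the nuclear lamins A and C, was at 316 and 283 RPKM and had the highest median of the list, followed by Krt8. Gfap, the astrocyte filament, was at 0.32 and 0.35 RPKM in these tumors and at 228, 65.1 and 260 RPKM in the meninges. The list summed to between 244 and 1111 RPKM, and 2 of the 14 genes tested passed an unadjusted p under 0.05 between the meninges and retro-orbital tumors (median difference 0.23, limma), neither after adjustment.

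**Figure D5:**
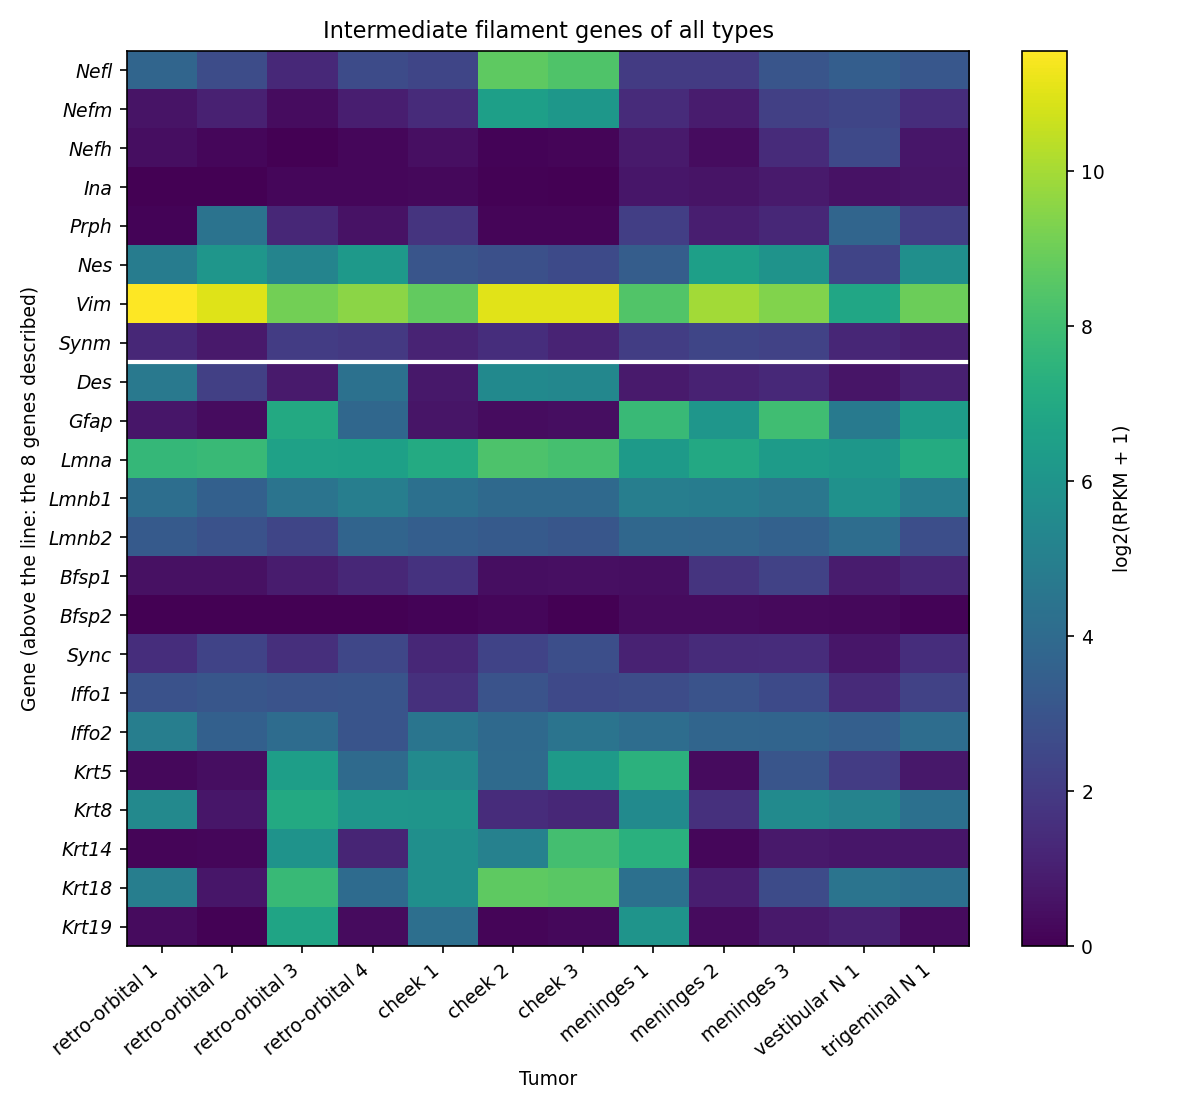
Level of the 8 genes described (above the white line) and of 15 other intermediate filament genes (below it) in the 12 tumors (horizontal axis), colored by log2(RPKM + 1). Cheek 2 and cheek 3 share bright cells for Nefl, Nefm, Vim, Des, Lmna and Krt18 and dark cells for Prph, Nefh, Ina, Gfap and Krt8.

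Genes that link filaments to other structures or bind them were counted as well. No gene of this list was higher in both cheek 2 and cheek 3 than in each other tumor, against 5.89% of all genes. The 12 genes summed to between 192 and 814 RPKM, with 213 and 285 RPKM in cheek 2 and cheek 3. Plec, the plectin that ties vimentin to other fibers, was at 61.0 and 68.6 RPKM there and at 13.4 RPKM in vestibular N 1, the tumor with the lowest Vim. Cryab, a chaperone of desmin and vimentin filaments, had the highest median of the list, and reached 692 RPKM in vestibular N 1. In limma none of the 12 passed an unadjusted p under 0.05 between the meninges and retro-orbital tumors (median difference 0.10).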

How the data were processed

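RNA of 12 tumors was sequenced as 1 pool after removal of ribosomal RNA. The authors aligned reads to mm10 with STAR, kept unique alignments, counted fragments on RefSeq genes with HTSeq 0.6.0 and deposited 1 RPKM value per gene and tumor. Reads had been converted with bcl2fastq 2.17 per the submitters' processing notes. The gene length and the mapped total behind RPKM were not given in the sources used here.

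For the total of each tumor, genes with few GENCODE M21 transcript lengths were taken to rest on a few fragments each. The total that most genes then implied was used. The number of fragments behind a value came from the smallest length that made a gene's 12 values whole within 0.02. Of the gene names, 27 were dates and were kept unnamed. Locations are as the labels give them. Meninges and retro-orbital tumors were compared with limma 3.58.1 (R 4.3.3; trended, robust variance; Benjamini-Hochberg at 0.05) on log2(RPKM + 1) in 10 tumors, with genes at 1 RPKM or more in at least 3. This scale understates changes of low genes. Other tests were permutations in Python 3.11.15 (numpy 2.4.6, scipy 1.17.1, pandas 2.3.3, matplotlib 3.10.9). The scripts were tested on simulated data.

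The members and lists were chosen with earlier results of these data known. Named genes were the 8 members, the 3 genes most like each, the 2 genes with the highest median of each list, any list gene past the threshold, and Smarcb1. The other genes named were chosen after their values were seen. The pseudocount, filter, normalization, variance prior, fitted tumors and independence of tumors were varied, and tumors left out in turn.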

Additional observations from a re-analysis of the deposited data

How the results depend on the processing

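No member was called between the meninges and retro-orbital tumors by limma under any of the 13 alternatives, with 0 to 3 members at an unadjusted p under 0.05. The difference of Vim kept its sign (-1.45 to -0.63) and so did those of Nefm (0.39 to 1.82) and Synm (0.48 to 1.08). Those of Nefl (-0.67 to 1.05), Prph (-0.63 to 0.80) and Nes (-0.91 to 0.65) did not. The highest values of Nefl (1.05) and Nefm (1.82) came from the fit with tumors of a shared first name part as a block. It pairs cheek 1 with meninges 1, so the cheek values, which chose the members, bear on those 2 estimates. Over all genes, 3 were called in the reported fit, 7 without the filter and 0 in a fit of the 7 tumors alone. Leaving out 1 tumor gave 0 to 41 genes: 41 without retro-orbital 3, 4 without retro-orbital 1, 3 without meninges 2, and 0 without retro-orbital 2, retro-orbital 4, meninges 1 or meninges 3. With tumors that share the first part of their name as a replicate block, 3 genes and 0 members were called. The consensus correlation of tumors within such a block was 0.93, so they may not be independent. Trigeminal N 1 was not in this fit, so its pair with retro-orbital 3 did not enter that value. In the level order, 2 pairs passed as reported, 4 after quantile normalization, 3 with a pseudocount of 0.1, and 1 with 1 tumor for each first part of the name, a setting chosen after seeing the data. Nes and Nefm then passed with a pseudocount of 0.1 (adjusted permutation p = 0.045) and after quantile normalization (adjusted permutation p = 0.048), as Nefh and Ina did after the latter. The comparison of Nes and Nefm holds the cheek 2 and cheek 3 values, so it remains a description. Without the 2 tumors farthest from the median of the first gene, 2 of the 21 correlations passed. Each such subset was set by extreme values of that gene, so these are descriptions, not tests. That of Nefm and Nefh turned from -0.06 to 0.89 over the 10 tumors without cheek 2 and cheek 3, and that of Prph and Vim was -0.93. The cause of these changes was not tested. Depth limits Ina, Nefh and Prph most, whose low values rest on 0 to 10 fragments.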
